A study of Homo sapiens with 9 samples.

Results

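Divergent promoter transcripts were measured as nascent RNA in MEL624 cells, a human melanoma line, with and without PCIF1. The genes described here are long noncoding RNA (lncRNA) genes whose symbol ends in -DT, the naming committee's suffix for a divergent transcript, with a mean normalized count of at least 50 over the 3 groups of the study. This gave 243 genes out of 579 -DT lncRNA genes and 58336 rows in the deposited table. The count in these same groups chose the members, so their abundance is a description and not a finding. Of the other -DT genes, 181 had a mean count between 10 and 50 and 155 a mean count under 10, of which 38 were listed at 0 in every group. Each member was paired with the protein-coding gene named in its symbol, which gave 243 different partners, all on the opposite strand.

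Precision run-on sequencing (PRO-seq) lets permeabilized cells extend their nascent RNA with a labelled nucleotide and so reads where engaged RNA polymerases stand. The knockout cells were 2 lines labelled PCIF1 KO, clone 1 (KO1) and clone 2 (KO2), and the control cells were wild type MEL624 carrying a random sgRNA. Each knockout line is a single clone, so the effect of the knockout and of the clone's own history cannot be told apart within it. All 3 groups had 3 libraries from independent biological replicates, made from 1000000 cells each with 40000 Drosophila S2 cells added, and were sequenced to an average of 50000000 mappable reads of 42 nt. PCIF1 is the enzyme that methylates an adenosine when it is the first transcribed base next to the cap.

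The deposited table gives 1 mean per group and no spread between libraries, so no standard deviation, interval, test or p-value can be given for any value. A difference is given as a log2 ratio of mean normalized counts after adding 1 to each count, which understates the ratio of low genes. PCIF1 itself had a count of 270 in clone 1 and 239 in clone 2, against 239 in control cells; polymerases still cross an edited gene, so this does not check the knockout. Of 9 melanocyte and melanoma markers 3 reached a mean count of 10 over the groups. MITF, the melanocyte master regulator, had counts of 142 in clone 1 and 259 in clone 2, against 169 in control cells. PRAME, a melanoma antigen, had 202 in clone 1 and 199 in clone 2, against 94.9 in control cells. PMEL, the remaining marker of these, went the other way, with 21.3 in clone 1 and 23.8 in clone 2, against 48.4 in control cells. SOX10 had 6.08 in clone 2 and was listed at 0 in clone 1 and control cells, and TYR was listed at 0 in all 3, so these defining markers of pigment cells were absent or nearly so. None of the blood, endothelial and epithelial markers reached that mean, though EPCAM had 9.95 in clone 1 and 4.48 in clone 2, against 12.6 in control cells. Of 4 fibroblast markers 1 reached it, COL1A1, with 27.8, 18.4 and 17.97 in clone 1, clone 2 and control cells.

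Most mammalian promoters, above all those in CpG islands, are transcribed in both directions from separate start sites on opposite strands. The coding direction is extended into the gene, while the upstream antisense RNA is commonly ended early at a polyadenylation signal and removed by the nuclear RNA exosome, and U1 snRNP bound at splice donor sites protects the coding direction from such early ending. Because PRO-seq reads RNA as it is made, it records such transcripts before they can be degraded.

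The members lay on 22 chromosomes, and 75 of them had a single annotated exon. The median distance between the annotated starts of a divergent transcript and its partner was 170 bases, and in 223 of 243 pairs it was at most 1000 bases. The starts faced away from each other in 233 pairs and overlapped head to head in 10. For the transcripts that the results below turn on, the DNA between both starts is shown from the hg38 genome on the strand of the divergent transcript, 5′ to 3′, with 10 bases on either side. The first capital lies opposite the annotated first base of the partner and the second is the annotated first base of the divergent transcript. NUP133-DT at chr1:229508331-229508379 and POLG-DT at chr15:89334814-89335063 are shown as 2 of the most abundant members. ZNF426-DT at chr19:9538635-9538691, TWF2-DT at chr3:52239148-52239266 and DENND6A-DT at chr3:57693067-57693215 are among the members furthest above control in clone 2. HK2-DT at chr2:74833977-74834137 and ITPRID2-DT at chr2:181891653-181891740 are members with lower counts in both clones, and both are read from the minus strand while the other 5 are read from the plus strand.
NUP133-DT: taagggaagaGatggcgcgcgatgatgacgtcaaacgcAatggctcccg
POLG-DT: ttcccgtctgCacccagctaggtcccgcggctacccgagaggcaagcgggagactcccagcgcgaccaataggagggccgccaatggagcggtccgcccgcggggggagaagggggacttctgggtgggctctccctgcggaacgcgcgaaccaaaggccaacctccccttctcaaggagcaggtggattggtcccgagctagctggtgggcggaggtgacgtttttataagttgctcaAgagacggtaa
ZNF426-DT: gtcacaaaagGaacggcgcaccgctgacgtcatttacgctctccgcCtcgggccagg
TWF2-DT: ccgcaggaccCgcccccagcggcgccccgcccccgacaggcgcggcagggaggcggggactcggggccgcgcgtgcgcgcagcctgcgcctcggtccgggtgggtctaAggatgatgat
DENND6A-DT: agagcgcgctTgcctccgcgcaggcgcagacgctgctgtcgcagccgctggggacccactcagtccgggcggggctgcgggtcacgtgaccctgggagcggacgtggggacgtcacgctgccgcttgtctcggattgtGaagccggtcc
HK2-DT: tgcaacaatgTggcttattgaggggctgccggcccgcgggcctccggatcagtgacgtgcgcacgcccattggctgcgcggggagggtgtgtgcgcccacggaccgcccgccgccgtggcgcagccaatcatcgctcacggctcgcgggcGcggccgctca
ITPRID2-DT: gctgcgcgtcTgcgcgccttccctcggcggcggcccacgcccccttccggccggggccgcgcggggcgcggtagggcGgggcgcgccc
The printed stretches ranged in GC content from 57.1% for NUP133-DT to 87.5% for ITPRID2-DT and held between 6 and 23 CpG dinucleotides.

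These transcripts were a small share of nascent transcription. Summed over all 243 members, normalized counts were 37196 in clone 1 and 40220 in clone 2, against 34420 in control cells. That was 0.989% and 1.05% of all counts in clone 1 and clone 2, against 0.915% in control cells. The median member had 118 counts in clone 1 and 131 in clone 2, against 108 in control cells, and 96 members had a mean count below 100 while 3 had one over 500. The partners summed to 86686 in clone 1, 84467 in clone 2 and 86641 in control cells, so their total differed between groups in the other direction from the divergent transcripts in clone 2.

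Among single members, POLG-DT, divergent from the gene for the mitochondrial DNA polymerase, had the highest count, with 1500 in clone 1 and 1732 in clone 2, against 1569 in control cells. Its partner POLG had 549 in clone 1 and 500.3 in clone 2, against 598 in control cells. CDK13-DT, opposite a kinase of the RNA polymerase tail, had 840 in clone 1 and 866 in clone 2, against 795 in control cells. PPP4R3B-DT, opposite a regulatory subunit of protein phosphatase 4, was the most abundant per length, with 1554 per kb in clone 1 and 1804 per kb in clone 2, against 1307 per kb in control cells. Its partner PPP4R3B stood at 34.0 per kb in control cells. NUP133-DT, opposite a scaffold protein of the nuclear pore, had 560 in clone 1 and 600.5 in clone 2, against 325 in control cells, and was the most abundant member at least 1.5-fold above control in either clone.

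Per kb of annotated exon, divergent transcripts stood above their coding partners in most pairs: in 167 of 243 pairs in clone 1, 166 in clone 2 and 165 in control cells. The median log2 ratio of divergent transcript to partner per kb was 0.85 in clone 1 and 0.93 in clone 2, against 0.76 in control cells, where the quartiles of the pairs were -0.38 and 1.81. It rose with the floor, as the control median was 0.45 with a floor of 25 and 1.21 with a floor of 100. Levels per kb of the pair were only loosely related across pairs in control cells (Pearson r 0.18, Spearman rho 0.18, 243 pairs from the same libraries; a description, without a test). At the upper extreme, SLC17A6, a vesicular glutamate transporter of neurons, was listed at 0 in all 3 groups while SLC17A6-DT had 73.9 counts in clone 1 and 52.9 in clone 2, against 46.2 in control cells. At the lower extreme, H2AZ1-DT stood at 31.3 per kb and H2AZ1, a histone variant gene, at 539 per kb in control cells. Of the 243 partners, 229 had a deposited length of 2000 bases or more, whereas the divergent transcripts had a median length of 1617 bases. Which features were counted is not given, so the level per kb may weight the promoter end differently in the 2 kinds of gene.

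**Figure D1:**
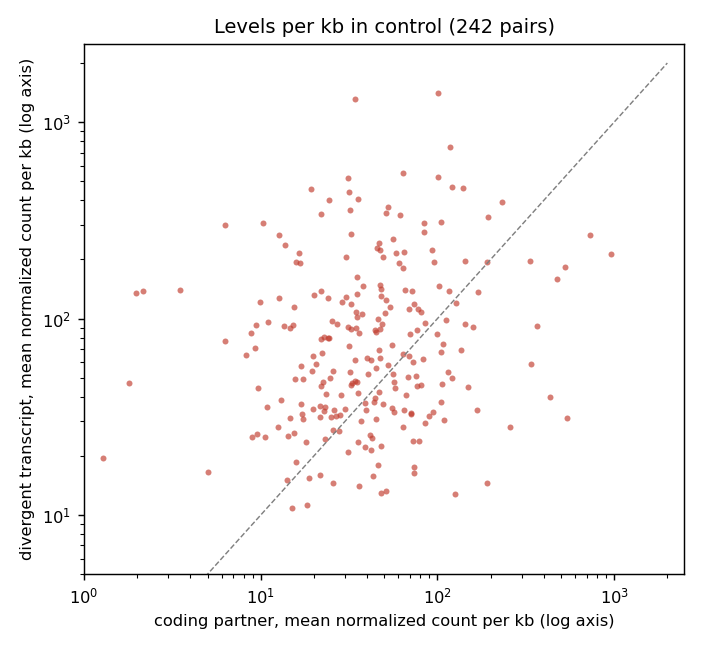
Level per kb of divergent transcripts and of their coding partners in control cells. Both axes are logarithmic, each point is 1 pair and pairs above the dashed line of equality have the higher level in the divergent transcript, which was so in 165 of 243 pairs, including that of SLC17A6-DT, whose partner level of 0 cannot be drawn on a log axis.

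The design asks whether nascent transcription differs without PCIF1. Divergent transcripts were on balance higher in both clones than in control cells, while their coding partners were not. The median log2 ratio of the 243 members was 0.12 in clone 1 against control and 0.24 in clone 2 against control, where that of the partners was 0.005 and 0.003 and that of all 11917 genes at or above the floor of 50 was -0.003 and 0.006. The contrasts of the 2 clones share the control libraries, so they are not independent of each other. Counts were higher than in control cells for 161 members in clone 1, or 66.3%, where 49.4% of all 11917 genes were higher. In clone 2 the count was 178, or 73.3%, where 50.9% of all genes were higher. Of the partners, 124 were higher in clone 1 and 123 in clone 2.

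The differences were small for most members. At least 1.5-fold higher were 23 members in clone 1, or 9.47% against 4.22% of all genes, and 41 in clone 2, or 16.9% against 7.33%. At least 1.5-fold lower were 8 members in clone 1, or 3.29% against 2.27% of all genes, and 9 in clone 2, or 3.70% against 3.47%. Members past 2-fold were few: 1 member was higher in clone 1 (0.999% of all genes were) and 7 in clone 2 (2.88%, against 1.79% of all genes), while 1 was lower in each clone (0.428% of all genes in clone 1 and 0.671% in clone 2). The quartiles of the members were -0.09 and 0.33 in clone 1 and -0.02 and 0.45 in clone 2.

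**Figure D2:**
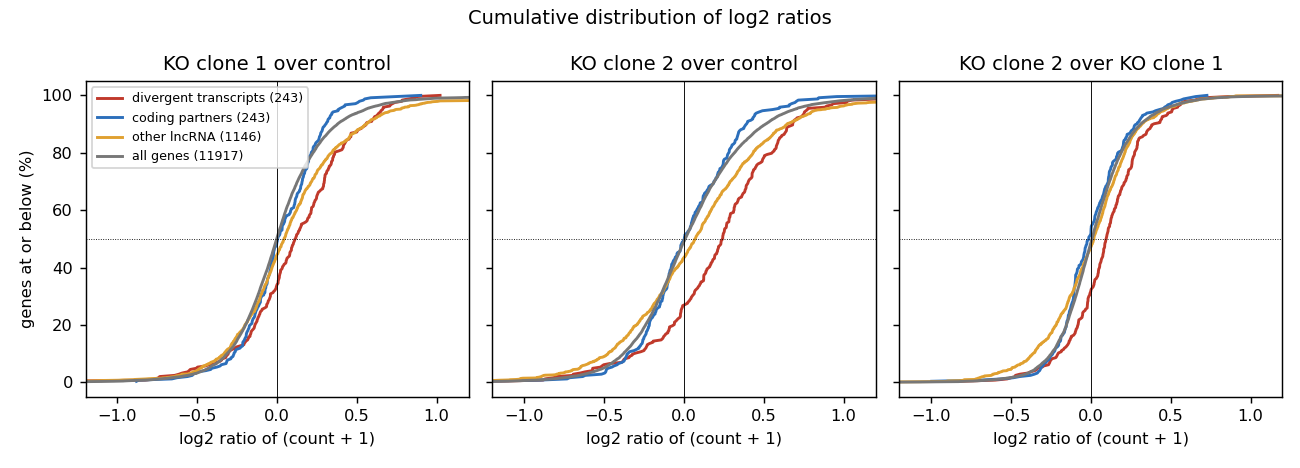
Cumulative share of genes by log2 ratio for divergent transcripts, their coding partners, other lncRNA genes and all genes at the floor of 50, in a panel per contrast. The curve of the divergent transcripts lies right of the others in the middle of its range, with medians of 0.12, 0.24 and 0.10 in clone 1 over control, clone 2 over control and clone 2 over clone 1.

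Other classes of lncRNA were also above control in the middle, by less for most of them. The 1146 lncRNA genes outside the -DT class had a median log2 ratio of 0.04 in clone 1 and 0.07 in clone 2. Among these, the 355 antisense genes with an -AS symbol had medians of 0.08 and 0.14, and the 124 intergenic genes with a LINC symbol had 0.13 and 0.08. In clone 1 the LINC median thus exceeded that of the divergent transcripts, and in clone 2 it did not. The 10128 protein-coding genes had medians of -0.01 (clone 1) and -0.003 (clone 2).

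Divergent transcripts of each range of abundance and length were above control in the median. Between 50 and 100 counts (96 members) the medians were 0.09 (clone 1) and 0.19 (clone 2), between 100 and 200 counts (96 members) 0.18 and 0.29, and from 200 counts up (51 members) 0.06 and 0.24. Coding genes in the same ranges had medians between -0.02 and 0.003. The 181 -DT genes between 10 and 50 counts, which are not members, had medians of 0.15 (clone 1) and 0.19 (clone 2), where all 5232 genes in that range had -0.02 and -0.05. By deposited length, the 78 members under 1000 bases had the highest medians, 0.22 in clone 1 and 0.31 in clone 2, and the 104 members of 2000 bases or more had 0.08 and 0.23. Short coding genes under 1000 bases, of which there were 98, also had medians above 0, at 0.06 in clone 1 and 0.13 in clone 2, and the 582 between 1000 and 2000 bases had 0.01 and 0.12, so length moved with the ratio among coding genes too and its part in the result was not tested.

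The floor itself weighs the clones, since a gene high in a clone passes it more easily. With the floor set on control cells alone, 229 -DT genes remained and their medians were 0.09 (clone 1) and 0.22 (clone 2). The 3 members nearest the floor were KDSR-DT with a mean count of 50.2, GATD1-DT with 50.5 and EPCAM-DT with 50.6, and the nearest genes outside it were NEMP2-DT with 49.9, PDGFA-DT with 49.0 and LLPH-DT with 48.9. Of these, NEMP2-DT had 52.9 counts in clone 1 and 61.7 in clone 2, against 35.0 in control cells, and PDGFA-DT had 40.3 in clone 1 and 33.9 in clone 2, against 72.9 in control cells.

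Distance between the starts separated the members. Where both starts lay within 1000 bases (223 pairs), the median log2 ratio was 0.13 in clone 1, with 152 members above control, and 0.24 in clone 2, with 169. The 20 members whose annotated starts lay further apart had medians of -0.03 and -0.05, with 9 above control in each clone. These 20 included TNRC6B-DT and PRKACB-DT, whose starts were annotated 133360 and 66310 bases from those of their partners. Among the close pairs whose starts face away from each other, the medians in clone 2 were 0.23 with 0 to 100 bases between the starts (55 pairs), 0.25 with over 100 and up to 300 (116 pairs) and 0.15 with over 300 and up to 1000 (44 pairs).

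Reads of overlapping genes could not be kept apart, since the strand setting of the counting is not given in the sources used here. Exons of 102 members overlapped those of some other gene, of which 57 overlapped the partner. Medians were 0.11 in clone 1 and 0.24 in clone 2 for these 102, and 0.12 and 0.23 for the 141 members without such an overlap. Only exons were compared, so those 141 can still lie in an intron of another gene and share reads with it. The part of shared reads in the displacement was not tested.

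The member furthest above control in clone 2 was ZNF426-DT, opposite a zinc finger gene, with 60.2 counts in clone 1 and 96.2 in clone 2, against 32.6 in control cells (log2 ratios of 0.87 and 1.53). ZNF426 itself had 374 in clone 1 and 428 in clone 2, against 329 in control cells, a smaller difference in the same direction. The starts of this pair, shown above, lie 36 bases apart.

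Some of the highest ratios in clone 2 belonged to transcripts in stretches of chromosome where neighbouring genes were also higher. EDRF1-DT on chromosome 10 had 180 counts in clone 1 and 294 in clone 2, against 114 in control cells (0.65 and 1.36), and the 50 nearest genes had a median log2 ratio of 0.27 in clone 2. TWF2-DT on chromosome 3, opposite the gene of the actin-binding protein twinfilin 2, had 111 in clone 1 and 203 in clone 2, against 80.4 in control cells (0.46 and 1.32), with a neighbourhood median of 0.32. Its partner TWF2 had 97.2 in clone 1 and 154 in clone 2, against 101.4 in control cells, so both directions were higher in clone 2 and neither partner count nor neighbourhood was higher in clone 1. DENND6A-DT, also on chromosome 3, had 64.8 in clone 1 and 96.7 in clone 2, against 41.0 in control cells (0.65 and 1.22), while DENND6A had 169 in clone 1 and 203 in clone 2, against 184 in control cells.

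ATP8A1-DT and TMEM30A-DT, opposite the genes of both subunits of a phospholipid flippase, were each at least 2-fold higher in clone 2. That link was drawn after the values were known and was not tested. ATP8A1-DT had 91.2 counts in clone 1 and 125 in clone 2, against 59.5 in control cells (0.61 and 1.05). ATP8A1 itself had 45.8 in clone 1 and 69.0 in clone 2, against 24.1 in control cells, which made it a pair with a higher ratio in the coding direction. TMEM30A-DT had 73.6 in clone 1 and 111 in clone 2, against 54.3 in control cells (0.43 and 1.02), with TMEM30A at 111, 116 and 111 in clone 1, clone 2 and control cells. RWDD3-DT was the remaining member above 2-fold in clone 2, with 58.2 in clone 1 and 66.9 in clone 2, against 32.5 in control cells (0.82 and 1.02).

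In clone 1 the highest ratio was that of PATL1-DT, opposite a gene of the mRNA decapping machinery, with 105 counts in clone 1 and 80.2 in clone 2, against 51.0 in control cells (1.02 and 0.64). PATL1 had 188 in clone 1 and 169 in clone 2, against 193 in control cells. TTC32-DT, one of the most abundant members, had 528 in clone 1 and 387 in clone 2, against 288 in control cells (0.87 and 0.43), whereas TTC32 had 182 in clone 1 and 169 in clone 2, against 199.9 in control cells. NUP133-DT had log2 ratios of 0.78 in clone 1 and 0.88 in clone 2, and NUP133 had 0.30 and 0.36. PDXP-DT had log2 ratios of 0.78 in clone 1 and 0.64 in clone 2. Clone 1 was above clone 2 for PATL1-DT, TTC32-DT and PDXP-DT, unlike the median member.

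**Figure D3:**
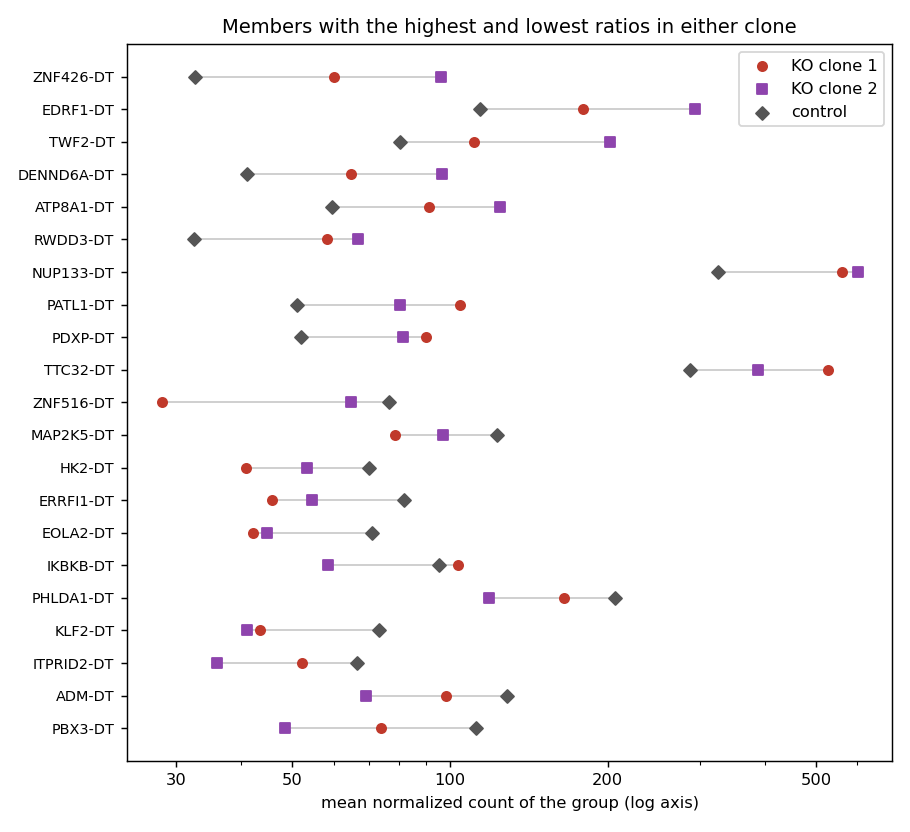
Mean normalized count in each group for the divergent transcripts with the largest ratios, on a logarithmic axis, with 1 row per transcript and 1 point per group. Each point is a mean the authors deposited, so no error bar can be drawn, and ZNF426-DT lies between 32.6 in control cells and 96.2 in clone 2.

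PBX3-DT, opposite a homeobox gene, was the member furthest below control in clone 2, with 73.9 counts in clone 1 and 48.4 in clone 2, against 112 in control cells (-0.59 and -1.19). PBX3 had 122 in clone 1 and 106 in clone 2, against 149 in control cells, so the partner was lower as well. KLF2-DT, opposite a gene of a Krüppel-like transcription factor, had 43.3 in clone 1 and 41.1 in clone 2, against 73.2 in control cells (-0.74 and -0.82). KLF2 differed by a like amount, with 403 in clone 1 and 393 in clone 2, against 735 in control cells.

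For other members with lower counts the partner was above control in clone 1 or in both clones. HK2-DT, opposite the hexokinase 2 gene, had 40.8 counts in clone 1 and 53.4 in clone 2, against 70.0 in control cells (-0.76 and -0.38). HK2 had 352 in clone 1 and 393 in clone 2, against 246 in control cells, so the pair differed from control in opposite directions. INSIG1-DT, opposite a gene of the sterol-sensing machinery, had 163 in clone 1 and 135 in clone 2, against 201 in control cells (-0.31 and -0.57), where INSIG1 had 236 in clone 1 and 259.7 in clone 2, against 187 in control cells. ITPRID2-DT had 52.2 in clone 1 and 36.0 in clone 2, against 66.6 in control cells (-0.35 and -0.87), with ITPRID2 at 783 in clone 1 and 660 in clone 2, against 706 in control cells.

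ZNF516-DT on chromosome 18 separated the clones most. It had 28.2 counts in clone 1 and 64.7 in clone 2, against 76.4 in control cells (-1.41 and -0.24), and ZNF516 had 75.3 in clone 1 and 116 in clone 2, against 139 in control cells. Neighbouring genes of ZNF516-DT had median log2 ratios of 0.09 in clone 1 and 0.02 in clone 2. At the other end, IKBKB-DT, opposite a kinase gene of NF-κB signalling, had 58.5 in clone 2 and 104 in clone 1, with 95.4 in control cells.

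Set against each other, clone 2 was above clone 1 for 165 of 243 members, or 67.9%, where 51.3% of all genes were. The median log2 ratio was 0.10, against -0.01 for the partners and 0.01 for all genes. The 355 antisense genes with an -AS symbol came nearer, with a median of 0.08 and 59.7% above clone 1. The 124 LINC genes had -0.007 and 49.2%. At least 2-fold higher in clone 2 than in clone 1 was ZNF516-DT alone (0.336% of all genes were), and 0 members were at least 2-fold lower (0.201% of all genes were), in values that carry no test. At 1.5-fold the members were no more often off than all genes, with 6 higher (2.47%, against 2.53% of all genes) and 2 lower (0.823%, against 1.11%). A difference of this kind between 2 lines that both lack PCIF1 is smaller than that of clone 2 from control cells and close to that of clone 1 from control cells.

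Within pairs, the divergent transcript had the higher log2 ratio of the 2 directions in 147 of 243 pairs in clone 1, or 60.5%, and in 168 in clone 2, or 69.1%. The median of divergent transcript minus partner was 0.09 in clone 1 and 0.22 in clone 2 against control, and 0.09 for clone 2 against clone 1. Opposite signs were common: the divergent transcript was higher and the partner lower in 71 pairs in clone 1 and 79 in clone 2, and the reverse held in 35 and 25 pairs. Across pairs the log2 ratios of both directions had a Pearson r of 0.25 in clone 1 and 0.32 in clone 2 against control and 0.41 for clone 2 against clone 1, given as a description since both directions come from the same libraries and chromosome segment. After the median of the 50 nearest genes was subtracted from both, r was 0.21, 0.16 and 0.31. In the 141 pairs whose divergent transcript overlapped no other gene's exons r was 0.35, 0.40 and 0.57, and in the 102 others 0.01, 0.11 and 0.08.

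**Figure D4:**
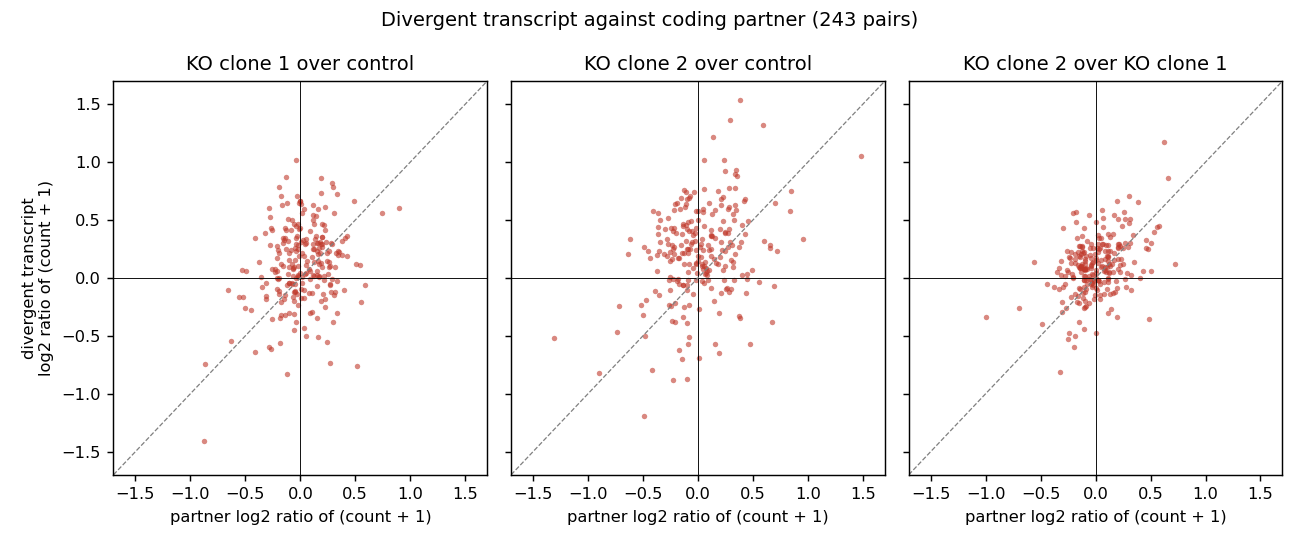
Log2 ratio of each divergent transcript against that of its coding partner, in a panel per contrast, with 243 pairs in each. More points lie above the dashed line of equality than below it, 147 in clone 1 over control, 168 in clone 2 over control and 157 in clone 2 over clone 1.

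Some members were grouped by what their partners do, in groups drawn up after the values were known. The groups do not take in every member that could be placed in them. Of all 243 members, 66.3% were above control in clone 1 and 73.3% in clone 2. A small group wholly above control is therefore not unusual, and a part of partner function was not tested. All 7 opposite chromatin factors were higher in both clones, with medians of 0.33 (clone 1) and 0.48 (clone 2), while the partners had -0.08 and -0.16. Among these CTCF-DT, opposite the insulator protein gene, had 137 counts in clone 1 and 155 in clone 2, against 109 in control cells, where CTCF had 271 in clone 1 and 229.5 in clone 2, against 292 in control cells. PRMT5-DT, opposite an arginine methyltransferase gene, had 300.6 in clone 1 and 318 in clone 2, against 240 in control cells, where PRMT5 had 145 in clone 1 and 137 in clone 2, against 161 in control cells.

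All 4 members opposite nuclear pore genes were higher in each clone, with medians of 0.36 and 0.41, and their partners had 0.05 and -0.18. NUP107-DT was the smallest of them in count, with 60.3 in clone 1 and 54.2 in clone 2, against 44.9 in control cells. All 5 opposite Golgi and vesicle traffic genes were higher too, with medians of 0.30 and 0.28 and partner medians of -0.04 and -0.01. STX5-DT, opposite a Golgi syntaxin gene, had 61.2 in clone 1 and 67.1 in clone 2, against 44.5 in control cells.

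The 6 members opposite genes of the unfolded protein response and folding in the endoplasmic reticulum were all higher in both clones, with medians of 0.36 and 0.40, and here the partners were also above control, with medians of 0.24 and 0.12. ATF6-DT, opposite a membrane-bound stress sensor gene, had 67.8 in clone 1 and 100.9 in clone 2, against 52.6 in control cells, where ATF6 had 144 in clone 1 and 127 in clone 2, against 107 in control cells. HSPA5-DT, opposite the gene of the chaperone BiP, had 140 in clone 1 and 117 in clone 2, against 108 in control cells.

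The 10 members opposite ubiquitin ligases, an activating enzyme and deubiquitinases had medians of 0.26 and 0.44, with 7 and 8 above control. The 12 opposite genes named ZNF had 0.18 and 0.35, with 9 and 10 above control, though the range in clone 1 was from -1.41 for ZNF516-DT to 0.87 for ZNF426-DT. The 7 opposite translation genes had 0.11 and 0.37, and the 8 opposite genes of chromosome segregation and the centrosome 0.07 and 0.24.

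Another group drawn up after the values were known lay opposite early response and growth signalling genes. It holds KLF2-DT, ERRFI1-DT, ADM-DT and PHLDA1-DT, which were among the members with the lowest ratios in a clone. A low median was therefore built into the choice and is not a finding about such genes. The 6 of this group had medians of -0.35 (clone 1) and -0.68 (clone 2), with 2 above control in each, and their partners had -0.15 and -0.23. PHLDA1-DT, opposite a gene induced by growth signals, had 165 counts in clone 1 and 119 in clone 2, against 207 in control cells, where PHLDA1 had 5208 in clone 1 and 4414 in clone 2, against 5901 in control cells. ADM-DT, opposite the adrenomedullin gene, had 98.4 in clone 1 and 69.2 in clone 2, against 128 in control cells, where ADM had 1264 in clone 1 and 1109.8 in clone 2, against 1295 in control cells. ERRFI1-DT, opposite a feedback inhibitor of the EGF receptor, had 45.7 in clone 1 and 54.6 in clone 2, against 81.8 in control cells. BTG1-DT and AJUBA-DT were the members of this group above control, with log2 ratios of 0.22 and 0.15 in clone 1 and 0.16 and 0.04 in clone 2. The 3 members opposite genes of glucose uptake and glycolysis had medians of -0.17 and -0.37, with 1 above control in each clone. Their partners had 0.17 and -0.09.

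Position along the chromosome moved with part of the differences in clone 2. For 17 members the 50 nearest genes had a median log2 ratio of at least 0.25 in clone 2 against control, and all 17 were above control in that clone, with a median of 0.61, where their partners had 0.34. Of the members in stretches shifted either way, 9 were on chromosome 10, with medians of 0.02 (clone 1) and 0.39 (clone 2), and their partners had 0.03 and 0.34. Another 5 were on chromosome 3, with medians of 0.46 and 0.78 and partner medians of -0.06 and 0.33. CEP192-DT on chromosome 18 lay in a stretch with a neighbourhood median of -0.42 in clone 1 and -0.44 in clone 2. CEP192, a centrosome gene, had 831 counts in clone 1 and 763 in clone 2, against 1172 in control cells, yet CEP192-DT had 370 in clone 1 and 449 in clone 2, against 356 in control cells. Among the 221 members with no shifted neighbourhood in either clone the medians were 0.12 and 0.22, so the displacement was nearly as large without the shifted stretches.

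As PCIF1 acts on transcripts that begin with adenosine, members were grouped by annotated first base. An A began 64 of 243 divergent transcripts, or 26.3%, compared with 107 of their partners and 46.1% of all coding genes. The 64 that begin with A had medians of 0.19 (clone 1) and 0.30 (clone 2), with 45 and 47 above control. The 179 that begin with another base had 0.10 and 0.23, with 116 and 131 above control, so members of both kinds were above control in the median. Where the partner began with A (107 pairs) the divergent transcripts had 0.11 and 0.24. The annotated base is uncertain to the base pair: the RefSeq start, found for 192 members, was the same position in 31, within 50 bases in 118, and gave the same first base in 85.

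Hexamers known from early termination were counted over the first 1000 genomic bases downstream of each annotated start. These bases can include introns or lie past the annotated end, as 78 members had a deposited length under 1000 bases. The polyadenylation hexamer AATAAA lay on the transcribed strand of this stretch for 93 divergent transcripts, or 38.3%. It did so for 46 partners, or 18.9%, and for 17.5% of all coding genes and 34.5% of other lncRNA genes. It was most frequent between bases 501 and 700, at 12.3 occurrences per 100 divergent starts in each bin of 100 bases, where partners had 2.06 and 4.53. The hexamer GGTAAG, a strong splice donor match, lay in 16.9% of divergent transcripts, 25.1% of partners and 22.9% of coding genes. On the opposite strand of the same stretches AATAAA was found for 107 divergent transcripts and 62 partners, and GC content was 51.1% for divergent transcripts and 59.8% for partners, so base composition moved with the hexamer and its part was not tested. Members with AATAAA had medians of 0.15 (clone 1) and 0.25 (clone 2), and the 150 without it 0.10 and 0.22.

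**Figure D5:**
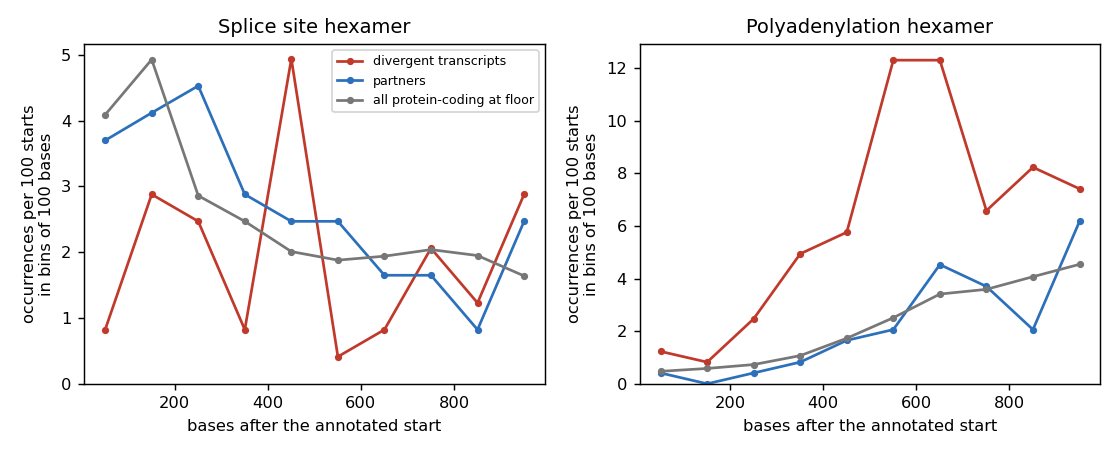
Occurrences of the polyadenylation hexamer and of the splice donor hexamer per 100 annotated starts, on the transcribed strand, in bins of 100 bases downstream of the start. Divergent transcripts reach 12.3 polyadenylation hexamers per 100 starts between 501 and 700 bases, where their coding partners have 2.06 and 4.53.

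Promoter windows reaching from 250 bases upstream to 50 downstream of the start were rich in CpG on both sides, with a median ratio of observed to expected CpG of 0.89 for divergent transcripts, 0.92 for partners and 0.69 for other lncRNA genes. GGCGG lay on either strand in 90.1% of the divergent windows, 94.7% of the partner windows and 67.2% of the windows of other lncRNA genes, and CCAAT in 31.3%, 37.0% and 34.6%. TATAAA was found in 3.70% of the divergent windows and 4.53% of the partner windows, against 10.6% for other lncRNA genes. TGACGTCA, searched on account of its presence in the NUP133-DT and ZNF426-DT sequences above, lay in 9 divergent windows, or 3.70%, where 3.81% of coding windows had it. Those 9 had medians of 0.12 (clone 1) and 0.16 (clone 2), not above those of the other 234 members in clone 2. Windows of divergent transcripts and their partners overlap in part, so these shares are not independent of each other.

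Nascent counts of the genes that process or end promoter transcripts had median log2 ratios between -0.13 and 0.07 by list. Past 2-fold, 0.999% of all 11917 genes lay above control in clone 1 and 1.79% in clone 2. Below control, the shares were 0.428% and 0.671%. With shares this low, the absence of such genes from a short list is not unusual. None of 26 genes of the nuclear RNA exosome and its adaptors, 18 of Integrator and the restrictor complex, 13 of the U1 snRNP, 25 of initiation and pausing or 9 of the cap enzymes was 2-fold off in either clone, without a test. Their medians in clone 1 and clone 2 were 0.03 and 0.01 for the exosome list, -0.01 and 0.07 for Integrator and restrictor, -0.13 and -0.03 for U1 snRNP, -0.06 and -0.01 for initiation and pausing, and -0.04 and 0.00058 for the cap enzymes. The median of 20 cleavage and polyadenylation genes was -0.04 and -0.08. Within that list CSTF2T, a variant of a cleavage stimulation factor subunit, was 2-fold higher in clone 2, with 136 counts in clone 1 and 245 in clone 2, against 84.2 in control cells. Of the 26 exosome and adaptor genes, 15 were above control in clone 1 and 13 in clone 2. Among them EXOSC7 had 328 in clone 1 and 419 in clone 2, against 285 in control cells (0.20 and 0.56). EXOSC6 went the other way, with 372 in clone 1 and 368 in clone 2, against 477 in control cells (-0.36 and -0.37). MTREX, the helicase that feeds RNA to the nuclear exosome, had 660 in clone 1 and 625 in clone 2, against 513 in control cells (0.36 and 0.28). SUPT4H1, a subunit of the elongation factor DSIF, had 213 in clone 1 and 258 in clone 2, against 155 in control cells (0.45 and 0.73).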

How the data were processed

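The authors deposited a table of signal: per the file headers, the mean over replicates of normalized counts per kb of gene length, 1 value for each group, rounded to 0.01. Its header has 6 names and its rows 5 cells, and the missing one was taken to be the symbol. Per the submitters' processing notes, the tools were Bowtie 1.2.2, cutadapt 1.14, DESeq2 and featureCounts, and the builds hg38, dm3 and GRCh38.p12. Not given in the sources used here were which features were counted, on which strand, and whether the spike-in set the scale. The depth behind each value is unknown, so no counting interval is given.

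A mean normalized count was obtained by multiplying each value by the deposited gene length. GENCODE release 44 supplied symbols, starts and exons and lacked 582 identifiers; the deposited length equalled its merged exon length for 94 members and lay within 5% of it for 123. Log2 ratios used a pseudocount of 1 and the genes whose mean count reached 50. A neighbourhood was the 50 nearest such genes on the chromosome, members and partners left out, and was called shifted at a median log2 ratio of at least 0.25 in size. Promoter windows and start regions were read from hg38 at the start of each gene's canonical transcript. RefSeq starts came from a table of promoters.

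The genes named are those with the highest counts, levels, log2 ratios and differences between the directions of a pair, those at least 2-fold off, those at the extremes of the level ratio, those next to the floor, and examples from the groups by partner function. The members, gene lists and groups were chosen with earlier results of these data known. Calculations used Python 3.11.15 with pandas 2.3.3, numpy 2.4.6 and matplotlib 3.10.9 and were tested on simulated data. Alternatives were another scaling, pseudocount, floor and unit and subsets of pairs.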

Additional observations from a re-analysis of the deposited data

How the results depend on the processing

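With 1 mean per group, no library could be left out. No paired analysis was possible because the table holds no value per replicate. There were 12 alternatives, and no median of the members changed sign under those run for it. Of the alternatives, a floor on control cells alone, members without exon overlap and members outside shifted stretches were chosen after seeing the data. The subsets by span overlap and by start distance were run only for values within pairs. Single members were run only under the scaling, pseudocount and unit alternatives. Of the ratios of 46 members named by the rule, 3 that lay near 0 changed sign under a scaling alternative: CHKB-DT for clone 2 over clone 1 (-0.0076 in the report's scaling, 0.0048 with median-of-ratios), FHIP1A-DT in clone 2 (-0.012 and 0.0081 with median-of-ratios) and SLC2A1-DT in clone 1 (0.013 and -0.0028 with quantile normalization). A value was counted as moved past 0.1 on the log2 scale or in r, or 1.5 times for a count. The median of the members ranged from 0.09 to 0.13 in clone 1, from 0.20 to 0.28 in clone 2 and from 0.07 to 0.11 for clone 2 over clone 1, and that of divergent transcript minus partner from 0.06 to 0.14, 0.19 to 0.25 and 0.07 to 0.10.

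Counts of members past 2-fold were few and moved. Higher in clone 1, with 1 in the report, were 0 with a pseudocount of 5, 5 with a floor of 25 and 0 with a floor of 100. Lower in clone 1, with 1 in the report, were 0 with a floor of 100. Higher in clone 2, with 7 in the report, were 4 after quantile normalization, 15 with a floor of 25, 2 with a floor of 100, 4 with the floor on control cells alone and 4 outside shifted stretches. Lower in clone 2, with 1 in the report, were 3, 0 and 2 with a floor of 25, a floor of 100 and the floor on control cells alone. Higher in clone 2 than in clone 1, with 1 in the report, were 2 with a floor of 25 and 0 with a floor of 100. The correlation of both directions was 0.46 with a floor of 25 and 0.35 without exon overlap in clone 1, 0.50 with a floor of 25 in clone 2, and 0.57 without exon overlap for clone 2 over clone 1. The median log2 level of divergent transcript over partner per kb in control cells was 0.45 with a floor of 25, 1.21 with a floor of 100, 0.89 for pairs whose spans do not overlap and 1.07 without exon overlap. With a pseudocount of 5, ZNF426-DT had 1.43 in clone 2 and ZNF516-DT -1.29 in clone 1 and 1.07 for clone 2 over clone 1. A higher floor keeps fewer members (147 at 100, 342 at 25); otherwise the cause was not tested.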
